A study of Homo sapiens with 4 samples.

Results

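The 10 genes described here form the core of the circadian clock: BMAL1, CLOCK, PER1, PER2, PER3, CRY1, CRY2, NR1D1, NR1D2 and DBP. They were chosen by name, BMAL1 being also written ARNTL, and all 10 were found among the 25027 gene symbols or unmatched identifiers of the files. They were measured by RNA-seq in RPE1, an epithelial line from human retina that telomerase has made immortal, after knockdown of SAF-A, the product of HNRNPU, also named scaffold attachment factor A, a nuclear RNA-binding protein reported to regulate transcription of BMAL1. The 4 groups were cells given negative control siRNA for 24 h, SAF-A siRNA for 24 h, control siRNA for 48 h, and SAF-A siRNA for 48 h. Every group received Stealth siRNA at 10 nM with Lipofectamine RNAi MAX, the knockdown rested on 1 siRNA sequence, and RNA was depleted of ribosomal RNA. Each group is a single library. No difference given here therefore has a replicate check, and there are no p-values. The SAF-A siRNA libraries are called knockdown libraries below.

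The clock is a feedback loop of transcription. BMAL1 pairs with CLOCK and activates genes that carry E-boxes, among them the PER, CRY and NR1D genes and DBP. PER and CRY proteins return to the nucleus and block BMAL1 and CLOCK. In another loop the nuclear receptors NR1D1 and NR1D2 (REV-ERB alpha and beta) repress BMAL1 at elements through which the ROR receptors activate it. Cultured cells each keep their own rhythm and drift apart unless a stimulus such as fresh serum sets them together. The labels name no such step, and the collection times lie 24 h apart, so a shift of phase and a change of mean level cannot be told apart here.

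Levels are FPKM as the authors deposited them, fragments scaled by transcript length and by mapped reads, so levels of different genes can be compared. The mapped reads behind them were 28083822 to 30701282 in 3 libraries and 1216740 in the 48 h knockdown library, which stands apart. In that library 166 symbols were listed at 0 although each had at least 5 FPKM in every other library. HNRNPU measured 91.2 and 84.6 FPKM in the control libraries at 24 h and 48 h, and 10.4 and 9.24 FPKM in the knockdown libraries, as their labels say. Of 9 retinal pigment epithelium markers, MITF (4.23 to 9.01 FPKM) and OTX2 (2.16 to 3.77 FPKM) were present, 7 stayed under 1 FPKM in every library, and RPE65, an enzyme of the visual cycle that defines the mature tissue, was listed at 0 throughout. The summed level of the 9 was lower in knockdown than in control cells at both times, 8.83 against 12.8 FPKM at 24 h and 7.36 against 13.8 FPKM at 48 h. The sum mostly followed MITF, at 5.56 against 8.90 FPKM at 24 h and 4.23 against 9.01 FPKM at 48 h. The deposited intervals of MITF were apart at 24 h and overlapped at 48 h. TYRP1 and PMEL at 24 h and BEST1 at 48 h were instead higher in knockdown cells. Among the filament genes at 48 h, VIM measured 1585.5 FPKM in control and 3312 FPKM in knockdown cells. KRT18 was listed at 229 and 23.3 FPKM, and KRT8 at 63.9 and 15.4 FPKM, in the same order. The deposited control intervals of KRT18 (0 to 12.0 FPKM) and KRT8 (0 to 4.63 FPKM) leave out their own values. Both keratin falls are therefore uncertain. The part of either marker shift in the clock values was not tested. Summed markers of blood, endothelium and photoreceptors stayed at or under 0.347 FPKM, while the neuronal gene SYT1 was present at 4.49 to 5.66 FPKM. In bulk RNA, fewer expressing cells and less RNA per cell cannot be told apart.

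The clock genes were unevenly expressed. In the 3 deep libraries NR1D2 stood highest, followed by CRY1, CLOCK, BMAL1 and CRY2, and the PER genes, NR1D1 and DBP were all under 1 FPKM. In both control libraries the deposited 95% intervals of neighbours did not overlap from NR1D2 down to PER3, while PER3 and PER2 overlapped. In the 24 h knockdown library the intervals of NR1D2 and CRY1 overlapped, as did those of CLOCK and BMAL1. The 48 h knockdown library had another order. BMAL1 stood first with an interval above that of CRY1, which came next, and all later neighbours overlapped. Of the 10 genes, 6 had an average of 1 FPKM or more across the libraries (BMAL1, CLOCK, CRY1, CRY2, NR1D2 and DBP), and only these enter the counts across genes. DBP got there only through the 48 h knockdown library, its average over the other 3 being 0.354 FPKM, so its difference in that library was a condition of its being counted.

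**Figure D1:**
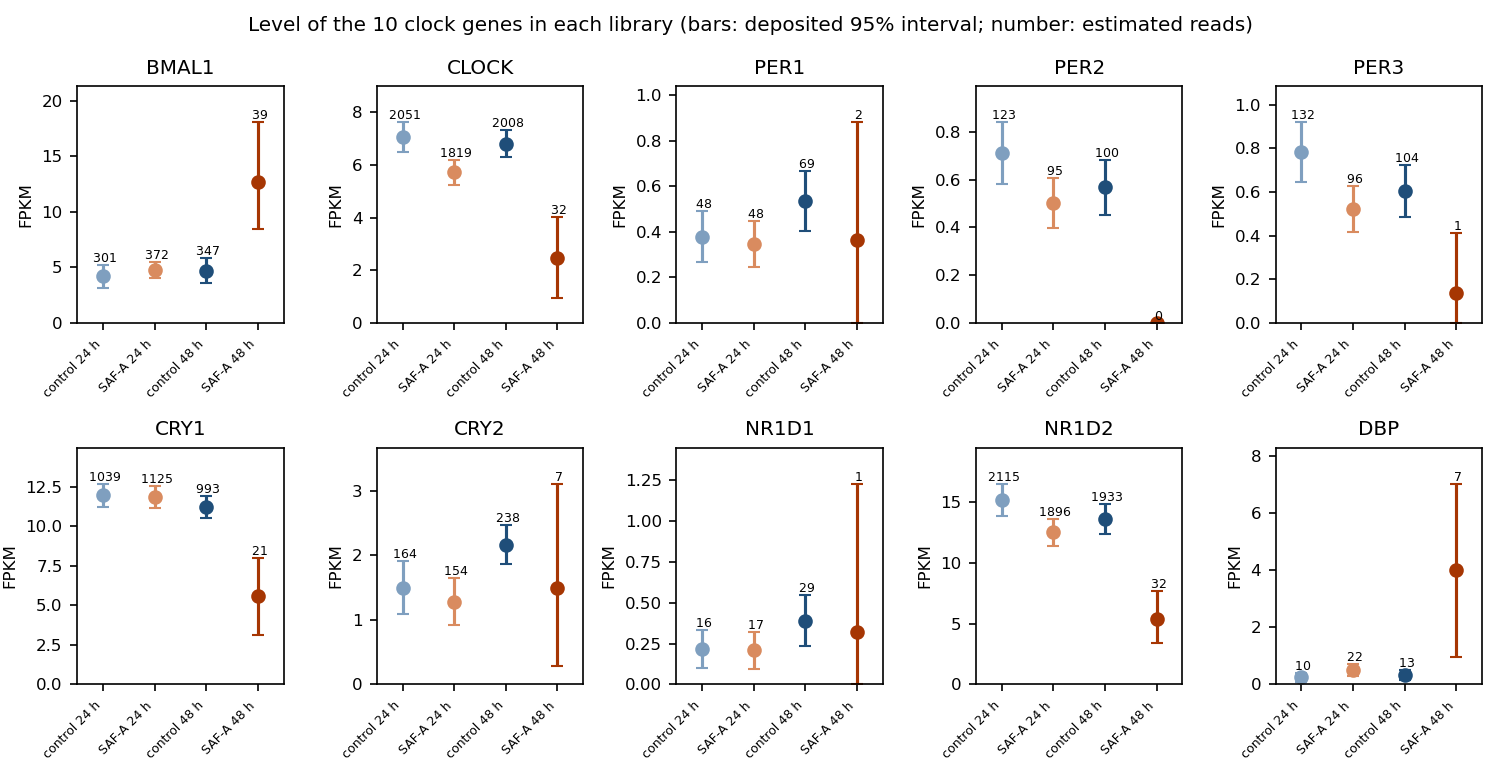
FPKM of each clock gene (y axis, 1 panel per gene, each with its own scale from 0) in the 4 libraries (x axis), with deposited 95% intervals as bars and estimated reads as numbers. In the 48 h knockdown library BMAL1 (12.6 FPKM) and DBP (3.998 FPKM) lie above the other 3 libraries, CLOCK, CRY1 and NR1D2 lie below them, and PER2 is listed at 0.

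BMAL1 lies on chromosome 11 at 13299325 to 13408812 (plus strand, hg19). Its start region is shown because BMAL1 is the clock gene with a reported link to SAF-A, and because REV-ERB and ROR receptors are known to act there. The sequence comes from RefSeq on GRCh38.p14, another build than that of the files. The 250 bases before its first listed start (chr11:13277540-13277789, plus strand) hold 6 CCAAT boxes (CCAAT on either strand, read here as ATTGG), in capitals. Of 35116 promoter windows of 300 bases, 34.6% held at least 1 CCAAT box and 43 windows held at least 6.
BMAL1 upstream: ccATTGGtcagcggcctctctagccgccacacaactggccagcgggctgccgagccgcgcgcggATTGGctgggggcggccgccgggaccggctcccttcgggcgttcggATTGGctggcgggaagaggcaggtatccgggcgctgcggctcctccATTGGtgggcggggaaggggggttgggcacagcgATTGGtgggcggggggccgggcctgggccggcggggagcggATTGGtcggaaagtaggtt
The letters AGTAGGTNA, common to the pair of receptor elements known in BMAL1, occurred at positions -8 to 1 and 29 to 37, counted from the first transcribed base. They are shown within windows of 30 bases (chr11:13277772-13277801 and chr11:13277808-13277837). The copy at 29 also holds TAGGTCA, the core letters of such elements. Core letters (TAGGTCA or TGGGTCA, either strand) were in 5.69% of all windows and in windows of 4 clock genes. Besides BMAL1 these were CLOCK (at -217), CRY2 (at -65) and NR1D2 (at -133). On either strand AGTAGGTNA was in 0.436% of all windows, and that of BMAL1 was the only 1 with 2 copies, which is partly built in because the letters were taken from this gene.
BMAL1 element at -8: ttggtcggaaAGTAGGTTAgtggtgcgaca
BMAL1 element at 29: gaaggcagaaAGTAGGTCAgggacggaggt

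BMAL1 was high in a single library. It measured 4.19 FPKM in control and 4.76 FPKM in knockdown cells at 24 h, and 4.70 and 12.6 FPKM in the same order at 48 h. The 3 deep libraries had overlapping deposited intervals, and that of the 48 h knockdown library, 8.48 to 18.1 FPKM, overlapped none of them. The value rested on 39 estimated reads, where 14.8 would stand for the level of the 48 h control, which had 347. The ratio of reads between knockdown and control, scaled by mapped reads, was 2.64 at 48 h with an exact 95% counting interval of 1.85 to 3.68, and 1.13 (0.969 to 1.32) at 24 h. Such intervals cover counting error within the libraries only. Across the 11631 genes compared, 14.2% were 2-fold or more higher and 20.1% 2-fold or more lower in the 48 h knockdown library. These shares use log2(FPKM + 1), which makes changes of low genes look smaller. BMAL1 had a log2 change of 1.26 on that scale, and 9.03% of genes had a higher one. The 3 profiles nearest to that of BMAL1 over the 4 libraries, among 7720 genes of at least 5 FPKM and 300 nt, belonged to GABARAP (an autophagy protein), SERINC1 and MYL6B (a myosin light chain). Their Euclidean distances on the centred log2 scale were 0.0209, 0.0432 and 0.0506, where the median gene was at 1.13. These distances are far below the counting error of the 39 reads of BMAL1, so which genes stand nearest is not settled.

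CLOCK, the partner of BMAL1 (chromosome 4, 56294068 to 56413076, minus strand, hg19), was low in both knockdown libraries. It measured 7.07 FPKM in control and 5.73 FPKM in knockdown cells at 24 h, and 6.81 and 2.48 FPKM at 48 h, and at each time the deposited intervals were apart. The read ratio was 0.811 (0.761 to 0.865) at 24 h and 0.374 (0.255 to 0.530) at 48 h, the latter from 32 reads. The pair parted at 48 h. BMAL1 stood at 0.593, 0.830 and 0.691 times the FPKM of CLOCK in the 24 h control, 24 h knockdown and 48 h control libraries, and at 5.09 times in the 48 h knockdown library. Even the extreme combination of deposited bounds put that last ratio at 2.1025, above the upper bound of 1.04 that was the highest among the others. One CLOCK window holds an E'-box (CACGTT on either strand, in 5.34% of all windows), an E-box variant.
CLOCK E'-box at -187: tcaccactcgggCACGTTtggagcagcgcc

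NPAS2, a paralog of CLOCK that can take its place beside BMAL1, was high in the same library as BMAL1. NPAS2 was picked for its rise at 48 h, the largest in the pathway list described below. It measured 0.825 FPKM in control and 1.14 FPKM in knockdown cells at 24 h, and 1.17 and 7.14 FPKM at 48 h. The read ratio was 1.38 (1.05 to 1.83) at 24 h and 6.10 (4.03 to 9.01) at 48 h, from 33 reads where 5.41 would stand for an equal level. The deposited intervals overlapped at 24 h. Between the controls, 48 h over 24 h, the NPAS2 read ratio was about as large, 1.42 (1.07 to 1.88). BMAL2, the paralog of BMAL1, measured 19.8 and 22.8 FPKM at 24 h and 9.84 and 15.1 FPKM at 48 h, and its log2 changes of 0.19 and 0.57 stayed under 2-fold. BMAL2 was above BMAL1 in all 4 libraries, though their intervals overlapped in the 48 h knockdown library.

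**Figure D2:**
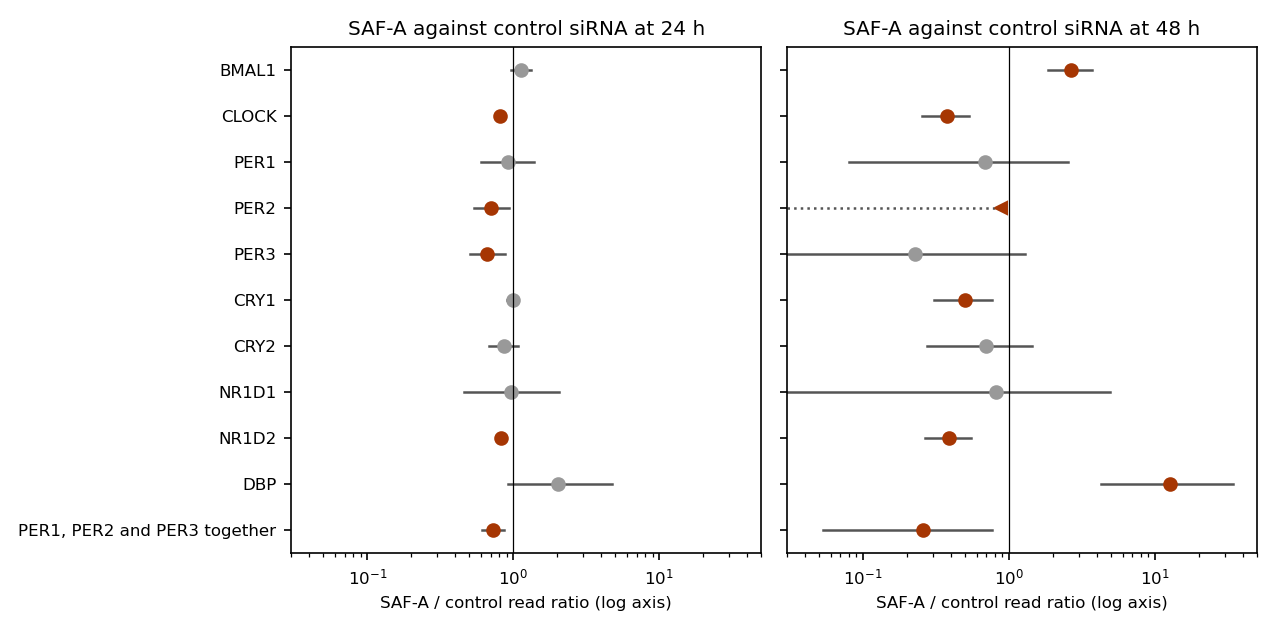
Ratio of estimated reads, knockdown over control, scaled by mapped reads (x axis, log scale) for each clock gene and for the 3 PER genes together, at 24 h (left) and 48 h (right), with exact 95% counting intervals as lines. Red points have intervals that leave out 1, and the arrowhead for PER2 at 48 h marks the upper limit 0.883 that a count of 0 allows; at 48 h BMAL1 (2.64) and DBP (12.7) lie to the right and CLOCK, CRY1 and NR1D2 to the left.

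The PER genes encode the period repressors, and each carries a clock element in its promoter window. The E-box (CACGTG, a palindrome) was in 7.26% of all windows, and the D-box (TTACATAA, TTACGTAA, TTATATAA or TTATGTAA, either strand), to which DBP binds, in 1.43%. The matches below are runs of letters in RefSeq windows on GRCh38.p14, with the motif in capitals and its position from the start. They are not shown to be bound.
PER1 E-box at -173: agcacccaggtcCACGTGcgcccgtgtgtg
PER2 E'-box at -197: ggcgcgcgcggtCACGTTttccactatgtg
PER2 D-box at -3: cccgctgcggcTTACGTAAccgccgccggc
PER3 D-box at -177: gagcccgcgcgTTATGTAAcgcgccccggg
PER3 D-box at -136: ctcgccctggcTTATATAAcccgggcgcac

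The PER genes were rare messages in RPE1 cells. PER1 (chromosome 17, 8043788 to 8055753, hg19) measured 0.379 FPKM in control and 0.347 FPKM in knockdown cells at 24 h, and 0.536 and 0.365 FPKM at 48 h. PER2 (chromosome 2, 239152679 to 239197207) measured 0.712 and 0.501 FPKM at 24 h, and at 48 h 0.568 FPKM in control cells with the knockdown listed at 0. PER3 (chromosome 1, 7844763 to 7905237) measured 0.783 and 0.521 FPKM at 24 h, and 0.606 and 0.137 FPKM at 48 h. PER2 and PER3 were thus lower in both knockdown libraries than in both controls. At 24 h the read ratios were 0.707 (0.535 to 0.931) for PER2, 0.665 (0.506 to 0.872) for PER3 and 0.915 (0.600 to 1.39) for PER1. The deposited 24 h intervals overlapped for PER2 and were apart for PER3. Between the controls, 48 h over 24 h, the ratios were 0.799 (0.607 to 1.05) for PER2 and 0.774 (0.593 to 1.01) for PER3. Summed over the 3 genes, the 24 h libraries held 239 knockdown and 303 control reads, a ratio of 0.722 (0.606 to 0.858). The 48 h knockdown library held 2, 0 and 1 reads of PER1, PER2 and PER3. That sum of 3 reads stood where 11.6 would mean an equal level, a ratio of 0.258 (0.0529 to 0.763). For PER2 the limit of 3 reads for a count of 0 is 0.401 FPKM, and the exact interval used for the ratios reaches 0.494 FPKM. Taken singly at 48 h, the ratio of PER2 had an upper limit of 0.883. The counting intervals of PER1 (0.0809 to 2.55) and PER3 (0.00567 to 1.29) held 1, so by counting no difference in PER1 or PER3 was detectable at this depth. The deposited 48 h intervals of PER3 were apart (0.487 to 0.726 FPKM in control, 0 to 0.411 FPKM in knockdown cells from 1 read), so the kinds of interval disagree for PER3.

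The cryptochromes CRY1 and CRY2, the other arm of the repressor complex, each hold 1 E'-box in a listed window, shown here on the strand of the gene.
CRY1 E'-box at -89: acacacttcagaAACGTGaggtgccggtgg
CRY2 E'-box at -188: acacatggtaggAACGTGagggggcgggcc
CRY1 (chromosome 12, 107385143 to 107487635, hg19) measured 12.0 FPKM in control and 11.8 FPKM in knockdown cells at 24 h, and 11.2 and 5.59 FPKM at 48 h. Its 3 deep libraries overlapped and the 48 h knockdown library was low, from 21 reads. The read ratio of CRY1 was 0.990 (0.910 to 1.08) at 24 h and 0.497 (0.306 to 0.764) at 48 h. CRY2 (chromosome 11, 45868669 to 45904799) measured 1.49 and 1.28 FPKM at 24 h, and 2.16 and 1.49 FPKM at 48 h. For CRY2 no knockdown difference was detectable, with ratios of 0.859 (0.685 to 1.08) and 0.691 (0.275 to 1.45), the latter from 7 reads. Between the controls the read ratio of CRY2, 48 h over 24 h, was 1.43 (1.16 to 1.75), but the deposited intervals overlapped (1.08 to 1.90 FPKM at 24 h and 1.86 to 2.47 FPKM at 48 h).

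The REV-ERB receptors repress BMAL1, and NR1D2 was the abundant member of the pair. A listed NR1D2 window holds 2 E-boxes, as 0.664% of all windows do, and 1 D-box. That of NR1D1 holds 1 E'-box.
NR1D2 E-box at -155: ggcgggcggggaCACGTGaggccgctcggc
NR1D2 E-box at -105: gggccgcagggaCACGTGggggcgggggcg
NR1D2 D-box at -194: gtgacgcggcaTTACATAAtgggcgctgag
NR1D1 E'-box at -168: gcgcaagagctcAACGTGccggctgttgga
NR1D2 (chromosome 3, 23986751 to 24022109, hg19) measured 15.2 FPKM in control and 12.5 FPKM in knockdown cells at 24 h, and 13.6 and 5.42 FPKM at 48 h. Both knockdown libraries were below both controls. The read ratio was 0.820 (0.770 to 0.873) at 24 h and 0.389 (0.265 to 0.551) at 48 h, from 32 reads. Between the controls, 48 h over 24 h, the NR1D2 ratio was 0.898 (0.844 to 0.955), which also leaves out 1, though the deposited intervals overlapped. The deposited interval of the 24 h knockdown library (11.4 to 13.6 FPKM) overlapped that of the 48 h control (12.4 to 14.9 FPKM). NR1D2 stood at 3.63, 2.63 and 2.90 times the FPKM of BMAL1 in the 24 h control, 24 h knockdown and 48 h control libraries, and at 0.429 times (0.191 to 0.910 by the extreme deposited bounds) in the 48 h knockdown library.

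NR1D1 (chromosome 17, 38249037 to 38256978, hg19) measured 0.217 FPKM in control and 0.210 FPKM in knockdown cells at 24 h, and 0.391 and 0.320 FPKM at 48 h, the final value from 1 read. No knockdown difference in NR1D1 was detectable at this depth, with ratios of 0.972 (0.462 to 2.06) and 0.810 (0.0198 to 4.89). NR1D1 shares 263 of its 2775 exon bases (9.48%) with THRA, a thyroid hormone receptor gene on the opposite strand, and the use of strand is not stated, so the level of NR1D1 is uncertain. THRA measured 3.38, 4.06, 3.43 and 9.78 FPKM in the 24 h control, 24 h knockdown, 48 h control and 48 h knockdown libraries. RORA and RORB, activating receptors that use the same elements, were near 0 in the 3 deep libraries, with RORA at most 0.0234 FPKM and RORB at most 0.0209 FPKM. Both were listed at 0 in the 48 h knockdown library, where the limit of 3 reads is 0.228 FPKM for RORA and 0.724 FPKM for RORB.

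DBP, an activator of D-box genes and a direct target of BMAL1 and CLOCK (chromosome 19, 49133817 to 49140639, minus strand, hg19), was high in the 48 h knockdown library. It measured 0.247 FPKM in control and 0.498 FPKM in knockdown cells at 24 h, and 0.316 and 3.998 FPKM at 48 h. These values rested on 10, 22, 13 and 7 reads. Both knockdown libraries were above both controls, but the deposited intervals overlapped at 24 h (0.0877 to 0.407 against 0.286 to 0.710 FPKM). The read ratio was 2.01 (0.914 to 4.76) at 24 h and 12.7 (4.27 to 34.1) at 48 h, where 0.553 reads would stand for an equal level. The log2 change was 1.93 at 48 h, and 2.71% of genes had a higher one, but DBP was among the genes compared only through this library. The DBP window holds none of the E-box, E'-box, D-box or receptor element letters, which says nothing of sites elsewhere in the gene.

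Counted across genes, none of the 6 clock genes compared was 2-fold different between the siRNAs at 24 h, where 1.83% of all genes were higher and 1.25% lower. At 48 h 2 of the 6 were higher (BMAL1 and DBP, beside 14.2% of all genes) and 2 lower (CLOCK and NR1D2, beside 20.1%). DBP was counted only through its 48 h knockdown value, and under a filter on the other 3 libraries 1 clock gene was higher. Deposited intervals were apart at 24 h for 2 lower genes, CLOCK and NR1D2 (beside 17.5% of all genes), and for no higher one (beside 8.98%). At 48 h they were apart for 2 higher, again BMAL1 and DBP (beside 21.9%), and for 3 lower (beside 26.6%). The median log2 change of all 10 clock genes was -0.08 at 24 h and -0.42 at 48 h, against -0.06 and -0.12 over the genes compared. Against genes of like length and GC content it was 0.03 at 24 h and -0.21 at 48 h, so the 24 h median has no settled sign. Scaling to TPM took the median of all genes to -0.22 at 24 h and to -0.15 at 48 h. The 24 h log2 change of BMAL1 was 0.15 as deposited and -0.0006 after that scaling, so it is given no direction.

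The clock genes differed little between the control libraries. None of the 6 differed by 2-fold between the control libraries, where 1.79% of all genes were higher and 1.36% lower at 48 h, and their log2 changes lay between -0.15 and 0.34. Between the knockdown libraries 2 of the 6 were higher at 48 h (BMAL1 and DBP, beside 15.1% of all genes) and 1 was lower (NR1D2, beside 17.8%). DBP was again counted only through its 48 h knockdown value. The call for NR1D2, with a log2 change of -1.07, is lost with TPM (-0.87) and against genes of like length and GC content (-0.90). CLOCK and CRY1 stayed just short of 2-fold, at -0.95 and -0.96. This comparison shares the 48 h knockdown library with that between the siRNAs at 48 h.

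The changes at 48 h differed somewhat by transcript length, and not steadily. The median log2 change was 0.08 among genes of 300 to 1000 nt, 0.17 up to 1500 nt, 0.05 up to 2000 nt and -0.10 up to 3000 nt. It was -0.19, -0.21 and -0.20 in the classes from 3000, 4000 and 6000 nt. The spread within a class was larger, with quartiles of -0.75 and 0.58 in that of 2000 to 3000 nt. DBP (1643 nt) and BMAL1 (2811 nt) are shorter than CRY1 (3294 nt), NR1D2 (5258 nt) and CLOCK (10981 nt). Pathway genes past 2-fold ran both ways. PPP1CA (1503 nt) and HDAC3 (1945 nt) were higher, as was NPAS2 (4004 nt). TIPIN (1280 nt), NOCT (1984 nt) and CSNK2A1 (2836 nt) were lower. SFPQ (3073 nt), KLF10 (3257 nt), WEE1 (3358 nt), FBXW11 (4575 nt) and KLF9 (5208 nt) were lower too. Set against the median of genes of like length (within a factor of 1.25) and GC content (within 3 percentage points), BMAL1 was 1.43 above, DBP 1.88 above and NPAS2 2.13 above. On the same log2 scale CRY1 lay at -0.72, NR1D2 at -1.06 and CLOCK at -1.16 against their like genes. Of the 684 genes like BMAL1, 11.8% were 2-fold or more higher, and of the 162 like DBP, 18.5% were. Of the 118 like CLOCK, 16.1% were 2-fold or more lower, and of the 641 like NR1D2, 18.7% were. Among all genes compared, 16.2% had a lower log2 change than CLOCK at 48 h, and 15.7% a lower one than NR1D2. The shares at 24 h were 15.4% and 15.5%. At 24 h CLOCK lay at -0.25 and NR1D2 at -0.22 against like genes. The part of RNA quality and of low depth in the 48 h knockdown values was not tested.

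**Figure D3:**
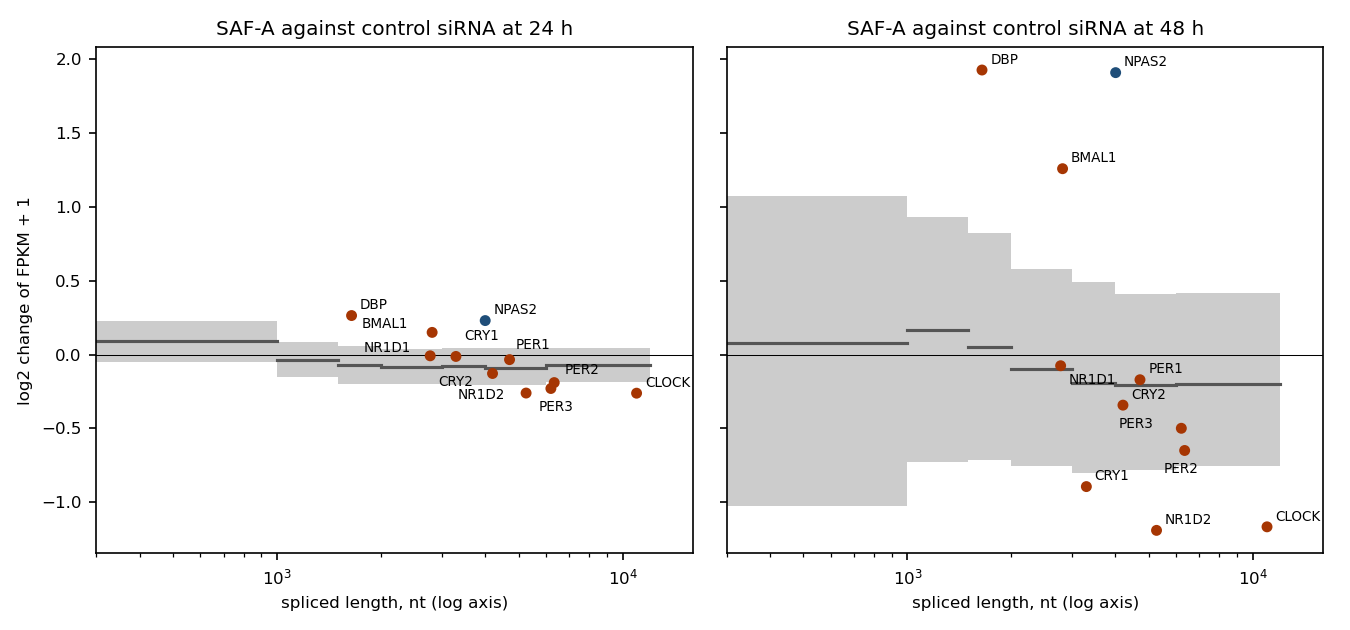
log2 change of FPKM + 1 between knockdown and control (y axis) against spliced length in nt (x axis, log scale) at 24 h (left) and 48 h (right), for the 10 clock genes (red) and NPAS2 (blue). Grey boxes span the middle 50% of all compared genes of at least 300 nt in each length class, with the median as a line. The boxes are taller at 48 h, where BMAL1, DBP, NPAS2, CRY1, NR1D2 and CLOCK lie outside them. About 50% of all genes lie outside the boxes by construction.

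The wider clock pathway was read from a list of 40 genes, of which 39 were in the files and 33 averaged 1 FPKM or more. None of the 33 differed by 2-fold between the siRNAs at 24 h, beside 1.83% of all genes higher and 1.25% lower, so this count is near the background. Deposited intervals were apart at 24 h for 11 lower genes of the 33 (beside 17.5% of all genes) and for no higher one (beside 8.98%). They were apart at 48 h for 10 lower (beside 26.6%) and 3 higher (beside 21.9%). At 48 h 3 were higher (NPAS2, PPP1CA and HDAC3, beside 14.2% of all genes) and 8 lower (beside 20.1%), with a median log2 change of -0.31. The lower ones were 4 of 7 clock outputs (WEE1, KLF9, KLF10 and NOCT), 2 of 11 cofactors (TIPIN and SFPQ) and 2 of 9 kinases, phosphatases or ubiquitin factors (CSNK2A1 and FBXW11). The intervals of KLF10 overlapped at 48 h. NPAS2, PPP1CA, SFPQ, CSNK2A1, KLF9 and BHLHE41 were named by a fixed rule, as the 2 largest rises or falls of the list in a comparison between siRNAs. Their extreme values in these same data are thus why they are named. The other pathway genes named here were picked after their values were seen.

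Among the outputs, KLF9, a transcription factor gene that follows both the clock and glucocorticoids, measured 2.63 FPKM in control and 1.97 FPKM in knockdown cells at 24 h, and 5.70 and 0.821 FPKM at 48 h, the final value from 5 reads. Its log2 change at 48 h was -1.88. WEE1, the kinase that holds back entry into mitosis, measured 21.5 FPKM in control and 17.6 FPKM in knockdown cells at 24 h. At 48 h it measured 30.7 and 7.82 FPKM, a log2 change of -1.85. Both genes were also higher in the 48 h than in the 24 h control, with intervals apart and log2 changes of 0.88 (KLF9) and 0.50 (WEE1). Between the knockdown libraries, 48 h against 24 h, the log2 changes were -0.71 for KLF9 and -1.07 for WEE1.

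Among the cofactors, SFPQ, an RNA-binding protein found in PER complexes together with NONO, measured 174 FPKM in control and 115 FPKM in knockdown cells at 24 h, and 173 and 68.5 FPKM at 48 h. Its intervals were apart at both times, with log2 changes of -0.59 and -1.33, the former being the lowest of the list at 24 h. NONO had log2 changes of 0.06 and -0.56. HDAC3, the deacetylase through which REV-ERB receptors repress, measured 34.2 and 73.2 FPKM at 48 h, a log2 change of 1.07. NCOR1, the corepressor that recruits it, had a log2 change of 0.50 with overlapping intervals.

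Among the enzymes that act on PER and CRY, CSNK2A1 (a catalytic subunit of casein kinase 2) measured 35.2 FPKM in control and 24.6 FPKM in knockdown cells at 24 h, and 35.5 and 8.20 FPKM at 48 h, log2 changes of -0.50 and -1.99. The kinases CSNK1D and CSNK1E, which phosphorylate PER, had log2 changes of -0.47 and 0.10 at 48 h. PPP1CA, a catalytic subunit of protein phosphatase 1, measured 67.7 and 144 FPKM at 48 h, a log2 change of 1.08 that was 0.75 above the median of genes of like length and GC content. BHLHE41, a repressor at E-boxes, had the highest log2 change of the list at 24 h, 0.27 (1.55 against 2.08 FPKM with overlapping intervals), and -0.55 at 48 h.

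**Figure D4:**
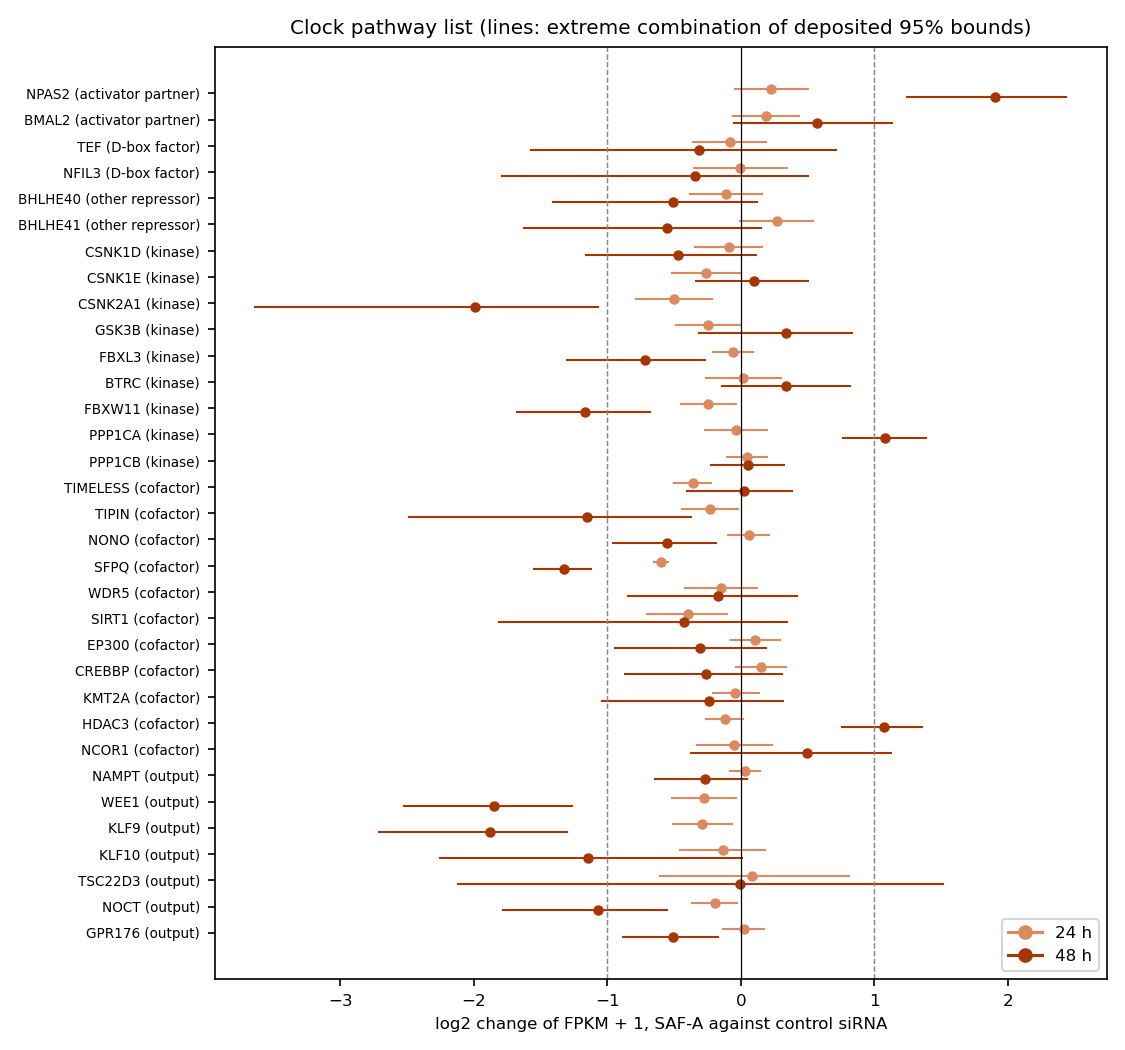
log2 change of FPKM + 1, knockdown against control (x axis), for the 33 compared genes of the clock pathway list (y axis, with their role) at 24 h (light) and 48 h (dark). Lines span the extreme combination of the deposited 95% bounds and dashed lines mark 2-fold; all 24 h points lie inside 2-fold, and at 48 h 3 lie beyond it to the right and 8 to the left.

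Transcript shares were read for the 4 clock genes with several RefSeq transcripts in the files. The 3 of BMAL1 have a common start and end. NM_001030273 adds an exon of 71 nt (chromosome 11, 13376773 to 13376843, hg19), which overlaps coding sequence in GENCODE. NM_001178 adds one of 55 nt (13347960 to 13348014), untranslated there, and NM_001030272 has neither. NM_001030272 took 61.1% of BMAL1 FPKM in control and 94.7% in knockdown cells at 24 h, and 28.5% and 99.9% at 48 h. The 99.9% rests on 39 reads in all, few of which could fall on exons of 71 or 55 nt. NM_001178 took 31.6% and 40.5% in the controls at 24 h and 48 h, and 0.00299% and 0.0457% in the knockdown libraries. The shares of BMAL1 shifted by 0.335 of its total between the siRNAs at 24 h, where 14.9% of genes with several transcripts shifted by 0.3 or more. Between the control libraries they shifted by 0.326, again beside 14.9% of genes, so the 24 h siRNA shift was about as large as that between controls. At 48 h the siRNA shift was 0.714, beside 44.6% of genes.

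CLOCK kept NM_004898 as its main form in the deep libraries, at 87.7%, 87.0% and 92.4% in the 24 h control, 24 h knockdown and 48 h control, against 36.4% of 32 reads in the 48 h knockdown library. NR1D2 was split between NM_001145425 and NM_005126, which differ in the first exon. NM_001145425 took 50.1% of NR1D2 in control and 61.1% in knockdown cells at 24 h, and 49.2% in control cells at 48 h. In the 48 h knockdown library it took 99.98% of NR1D2, from 32 reads in all. Few of those could fall on the 133 or 335 nt that set the forms apart. The NR1D2 shift between the siRNAs at 48 h was 0.508, where 44.6% of genes shifted by 0.3 or more. CRY2 shares differed by time: NM_021117 took 34.8% and 37.1% of CRY2 at 24 h and at most 0.109% at 48 h. The 48 h knockdown library held only 7 reads of CRY2. The CRY2 shift was 0.348 between the controls and 0.370 between the knockdown libraries, where 44.2% of genes shifted by 0.3 or more.

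**Figure D5:**
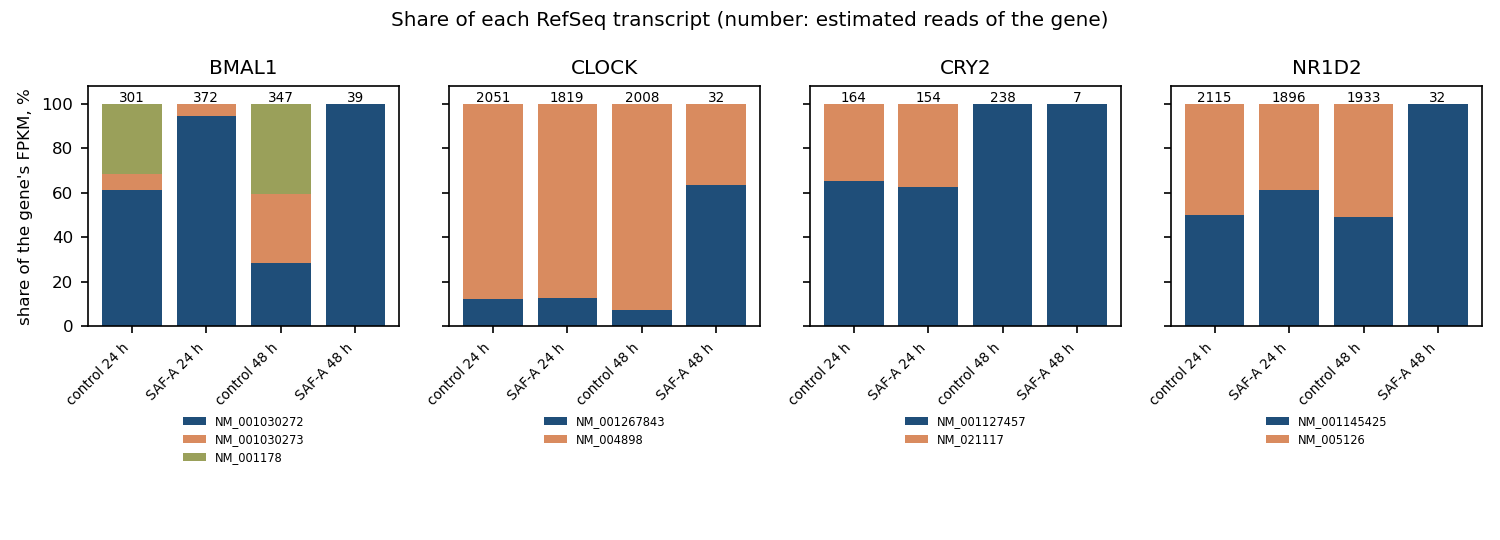
Share of each RefSeq transcript in the FPKM of BMAL1, CLOCK, CRY2 and NR1D2 (y axis, percent) in the 4 libraries (x axis), with the estimated reads of the gene above each bar. NM_001030272 makes up 94.7% and 99.9% of BMAL1 in the knockdown libraries and 61.1% and 28.5% in the controls.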

How the data were processed

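RNA-seq libraries, 1 per siRNA and time, were read as 50-base single-end reads per the labels' protocols. The authors deposited FPKM with 95% bounds per RefSeq accession; TopHat2 2.0.10, Bowtie2 2.1.0, Cufflinks 2.2.1 and hg19 are named per the submitters' processing notes, without settings, strand use or handling of reads that map to several places. The transcript files deposited by the authors also hold a score column, which was not used, and coverage, from which mapped reads were derived. Of 47338 rows, 97.1% matched a symbol through RefSeq (GRCh38.p14, names only); FPKM and bounds were summed per symbol, so summed bounds are wide. Estimated reads are FPKM times effective length (fragments of 200 ± 80 nt, the Cufflinks default) and mapped reads; for the clock genes in the SAF-A 48 h library they lay within 0.0546 of whole numbers, and elsewhere they were rounded. Read ratios are scaled by mapped reads, with exact (Clopper-Pearson) 95% intervals; reads carry no molecular identifiers, so intervals and the limit of 3 reads for a count of 0 cover counting error only.

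Changes are differences in log2(FPKM + 1); genes averaging 1 FPKM or more over the 4 libraries were compared, and a change was called from 2-fold. No count model was fitted. The clock genes were all named; from the pathway list, genes past 2-fold the same way at both times and the 2 largest rises and falls per siRNA comparison were named, as were the 3 profiles nearest to BMAL1. The members and lists were chosen with earlier results of these data known. Promoter windows span 250 bases before to 50 after a RefSeq start; all 10 genes matched. GC content was taken from GRCh37 exons. The fold functions were tested on simulated data. Python 3.11.15, pandas 2.3.3 and numpy 2.4.6 were used.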

Additional observations from a re-analysis of the deposited data

How the results depend on the processing

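No analysis paired by replicate was possible, because each group has 1 library and no replicate numbers pair the siRNAs within a time. Setting the times as pairs, which would take them for replicates, was not run. No library could be left out of a comparison. Alternatives were a pseudocount of 0.1 FPKM, TPM, centring on genes of at least 5 FPKM, coding rows only, other filters, a 1.5-fold threshold, and 2-fold with intervals that do not overlap. Centring on genes of like length and GC content, and filtering on the mean of the other 3 libraries, were added after the data were seen. The median log2 change of the 10 clock genes lay between -0.21 and 0.03 at 24 h (-0.08 as reported) and between -0.75 and -0.21 at 48 h (-0.42 as reported). Of the counts, 146 stayed within 1.5 times and 22 did not. No called change of a clock gene changed sign. BMAL1 at 48 h lay between 1.24 and 1.43, DBP between 1.88 and 3.30, CLOCK between -1.42 and -1.16 and NR1D2 between -1.32 and -1.06.

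DBP leaves the count by construction, so that 1 clock gene was higher in each comparison with SAF-A 48 h, under a mean of at least 5 FPKM or a filter on the other 3 libraries. With SAF-A siRNA over time the lower clock genes numbered 3 with a pseudocount of 0.1, with centring on genes of at least 5 FPKM and at 1.5-fold, and 0 with TPM and with centring on like genes; the cause was not tested. In the pathway list, 1.5-fold gave 1 lower gene at 24 h, 2 higher and 1 lower between controls, and 5 higher and 10 lower with SAF-A siRNA over time. A pseudocount of 0.1 gave 1 higher and 1 lower between controls, TPM gave 2 lower and a mean of at least 5 FPKM 1 higher with SAF-A siRNA over time. Among all genes, a length of at least 300 nt gave 47 higher and 29 lower at 24 h, and 64 and 50 between controls, since short RNAs leave. At 1216740 mapped reads, PER1, PER3, NR1D1 and CRY2 could not be separated from no change by their counting intervals, though the deposited intervals of PER3 were apart.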
